A study of Apis mellifera with 36 samples.

Results

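The 6 guard bees of colony 6 were compared by their load of deformed wing virus (DWV): 3 guards with a high load against 3 guards with a low load, out of 36 honey bee workers (Apis mellifera) in the series. The labels give each library's total reads and the reads mapped to DWV. A guard with more than 1000 DWV reads per 1000000 total reads (RPM) was placed in the high DWV group and a guard below that in the low DWV group. Guards are named here by the number in their title: Guard 213, Guard 230 and Guard 237 were the high DWV guards, and Guard 205, Guard 210 and Guard 222 the low DWV guards. Per the labels, all bees were 7 days old, were kept from emergence in laboratory dishes of 10, and came from colonies whose queen had been mated by insemination with 1 drone. Guards were the bees that bit and stung an introduced intruder in both of its tests. The tissue was the upper midbrain, mostly mushroom bodies with central brain, and each library came from 1 bee. The labels name no inoculation, so load and any other difference between these 6 bees cannot be told apart. The other colony 6 bees, 6 nurses that tended a queen larva and 6 unresponsive bees that showed no overt social behaviour, were all below 1000 RPM. Colony 5 held 13 high DWV bees (5 guards, 2 nurses and 6 unresponsive bees) and 5 low DWV bees (1 guard and 4 nurses).

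DWV is a positive-strand RNA virus of honey bees that is spread by the parasitic mite Varroa destructor. Bees can carry it without visible signs, and it can be found in the brain. Mushroom bodies are the paired insect brain centres for learning and for joining smell and sight. Insects answer viruses mainly by RNA interference and by induced immune genes.

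The files give genes by identifier (ID) only, and of 15314 IDs 0 could be paired with a name. Results are reported by ID, with no function, at most a pair in each direction of a comparison and 4 IDs chosen because earlier results of these data gave them as high in colony 6 guards. Neither immune genes nor markers of neighbouring tissue such as the hypopharyngeal glands could be looked up, so the tissue label was not checked against markers. In these bulk samples, fewer cells of a type and less RNA per cell cannot be told apart.

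Virus load differed between the groups by the way they were made. Guard 213 had 8526 RPM, Guard 230 had 8608 RPM and Guard 237 had 6673 RPM, against 63.2 RPM in Guard 205, 32.0 RPM in Guard 210 and 3.91 RPM in Guard 222. The members nearest the threshold were Guard 237 above it and Guard 205 below it, so no guard lay close to 1000 RPM. Nurses of colony 6 ran from 2.60 to 41.6 RPM with a median of 4.86 RPM, and unresponsive bees from 4.27 to 17.3 RPM with a median of 7.80 RPM. The high DWV bees of colony 5 carried more than these guards, from 10412 to 28967 RPM with a median of 15670 RPM.

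Counts over genes came to 27.5, 17.4 and 18.5 M (mega) in Guards 213, 230 and 237, against 18.9, 18.8 and 19.9 M in Guards 205, 210 and 222. The 3 bees numbered 213 gave the deepest colony 6 libraries and carried a sequencing lane tag of their own. Reads that mapped neither to bee nor to DWV are called unassigned here. Their share was 16.3% in Guard 213, 17.5% in Guard 230 and 17.2% in Guard 237, against 16.1% in Guard 205, 18.5% in Guard 210 and 14.0% in Guard 222. The groups overlapped, since Guard 210 had the highest share of the 18 colony 6 bees and Guard 222 was among the lowest. High DWV guards averaged 17.0% ± 0.576 and low DWV guards 16.2% ± 2.28 (SD, n = 3 each). The difference of 0.792 percentage points had p = 0.7 in a two-sided exact permutation test, and the smallest p that 3 against 3 allows is 0.1. The share of reads mapped to the bee genome was 82.2% ± 0.562 in high DWV guards and 83.8% ± 2.28 in low DWV guards (SD, n = 3 each). This difference of -1.58 percentage points had p = 0.4 in the same exact permutation test. DWV reads, which made the groups, took 0.853%, 0.861% and 0.667% of reads in Guards 213, 230 and 237. They count in the same total, so both tested shares were partly set by the grouping. For scale, the unassigned share ran from 16.7% to 22.9% in the 13 high DWV bees of colony 5 and from 13.3% to 14.9% in its 5 low DWV bees. Guard 210, a low DWV guard, lay inside the range of the high DWV bees of colony 5. So did the unresponsive bee numbered 222 of colony 6, with 5.40 RPM and 16.8% unassigned reads. Among the high DWV guards, Guards 230 and 237 lay inside that range and Guard 213 below it. What the unassigned reads are was not tested.

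**Figure D1:**
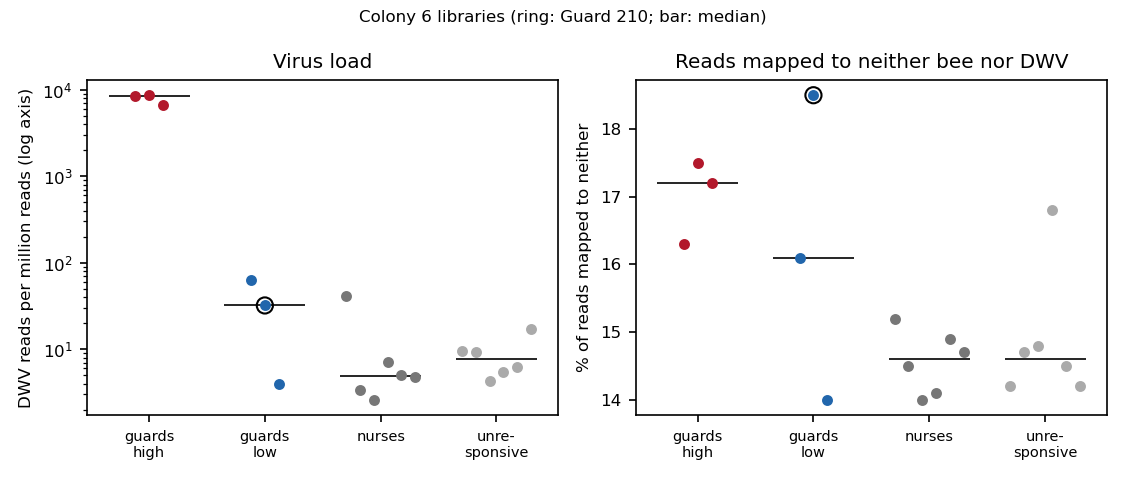
DWV reads per 1000000 reads on a log axis (left) and the percent of unassigned reads (right) in each of the 18 colony 6 bees, with guards split into high and low DWV; points are bees and bars are medians. The 3 high DWV guards sit between 6673 and 8608 RPM, above all other colony 6 bees, while Guard 210 (ringed) has 32.0 RPM and the highest unassigned share, 18.5%.

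With all 6 guards, 0 of 10799 genes tested (0%) passed an adjusted p of 0.05 by the edgeR quasi-likelihood test. Before adjustment 630 genes had p under 0.05, and the lowest adjusted p was 0.169. DESeq2 called 38 genes (0.352%), 15 higher and 23 lower in high DWV guards, and in 37 of these the groups did not overlap. Over all genes tested, all 3 high DWV guards lay above all 3 low DWV guards in 685 genes (6.34%) and below them in 563 (5.21%). There are 20 ways to split 6 bees into 3 and 3, so chance alone gives each of these orders in about 1 in 20 genes. The fitted difference exceeded 2-fold in 196 genes, 68 higher and 128 lower in high DWV guards, and in 76 of these the groups did not overlap. For 91.5% of genes the 95% interval of the difference reached less than 1 log2 unit to either side.

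The 2 genes higher in high DWV guards with the smallest p did not pass the edgeR threshold. GB51174 had 274, 287 and 250 CPM (counts per 1000000 counts, scaled by the TMM library factors) in Guards 213, 230 and 237, against 151, 189 and 168 CPM in Guards 205, 210 and 222. The groups did not overlap, and the 12 nurses and unresponsive bees of colony 6 lay with the low DWV guards, from 141 to 196 CPM with a median of 156 CPM. High DWV guards were 1.59-fold higher, a log2 change of 0.67 ± 0.10 (SE), with an adjusted p of 0.169 by edgeR on the 6 guards and 1.37e-06 by DESeq2. When all 36 libraries gave the estimate of spread, GB51174 was the 1 gene that edgeR called, with an adjusted p of 0.00138, and with the 18 colony 6 libraries its adjusted p was 0.0568. In colony 5 it ran from 167 to 213 CPM, with a median of 197 CPM, in high DWV bees and from 166 to 196 CPM, with a median of 177 CPM, in low DWV bees. The log2 change there was 0.06 with a 95% interval of -0.08 to 0.21. The colony 6 change minus the colony 5 change was 0.61 ± 0.13 (SE), with an adjusted p of 0.277 by edgeR.

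GB48816 had 70.0, 63.0 and 63.9 CPM in Guards 213, 230 and 237, against 42.7, 45.5 and 38.0 CPM in Guards 205, 210 and 222. Its groups did not overlap either, but nurses and unresponsive bees of colony 6, from 41.8 to 77.0 CPM with a median of 51.6 CPM, spanned both. The log2 change was 0.64 ± 0.09 (SE), with an adjusted p of 0.169 by edgeR and 2.65e-05 by DESeq2.

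The 2 genes lower in high DWV guards named by the same rule did not pass by edgeR. GB55039 had 73.3, 74.3 and 94.6 CPM in Guards 213, 230 and 237, against 134, 127 and 142 CPM in Guards 205, 210 and 222. GB49004 had 16, 12.0 and 19.0 CPM in the high DWV guards, in the same order of bees, against 34.0, 55.9 and 39.0 CPM in the low DWV guards. In both genes the groups did not overlap. The median of the nurses and unresponsive bees was 95.6 CPM for GB55039, between the means of the high and low DWV guards, and 16 CPM for GB49004, the same as the median of the high DWV guards. The log2 changes were -0.74 ± 0.11 and -1.45 ± 0.23 (SE), with adjusted p of 0.169 and 0.381 by edgeR. DESeq2 called both, at adjusted p of 7.66e-06 for GB55039 and 1.19e-07 for GB49004.

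**Figure D2:**
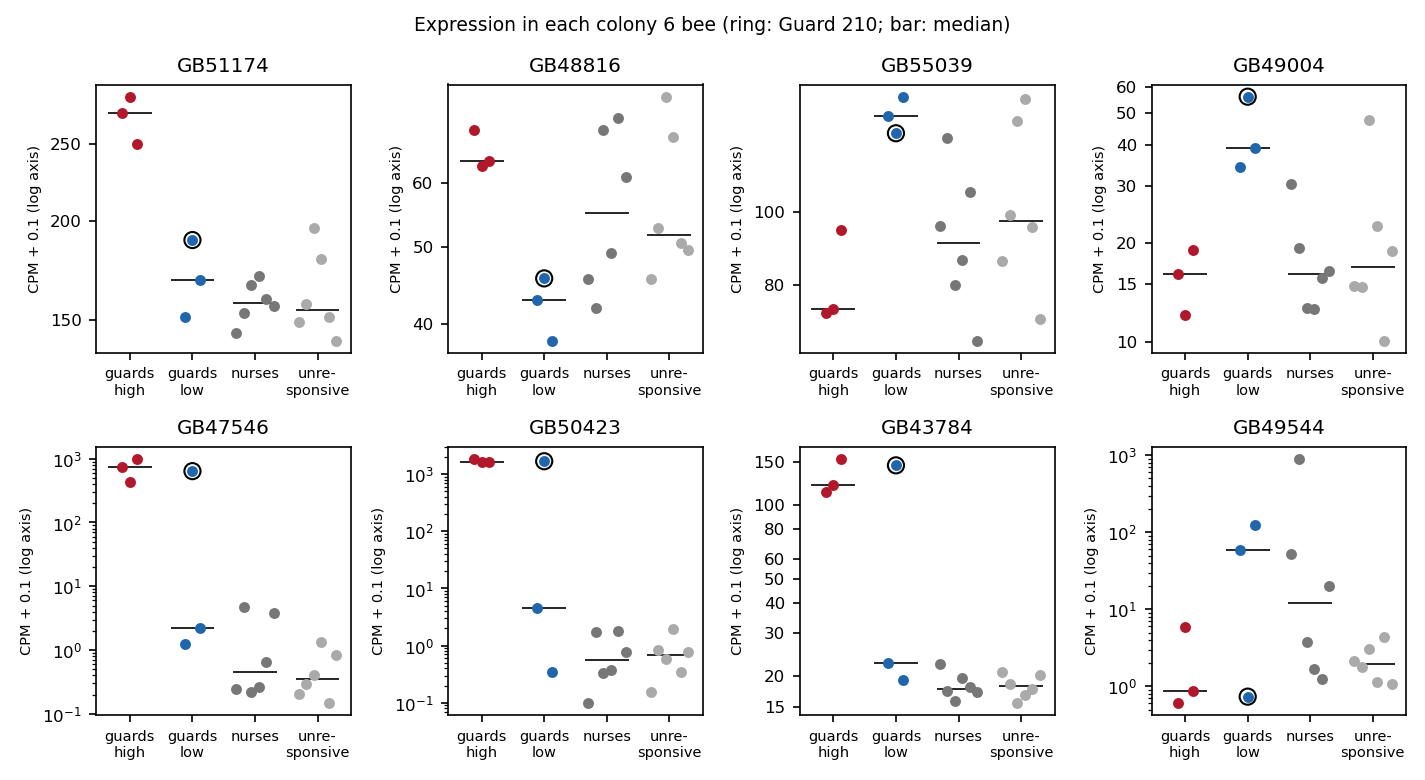
CPM plus 0.1 on log axes for 8 genes in each colony 6 bee, with high DWV guards at the left of low DWV guards, then nurses and unresponsive bees; points are bees, bars are medians and the ring marks Guard 210. In the upper row the high DWV guards stand apart from all 3 low DWV guards, and in the lower row Guard 210 lies with the high DWV guards, as in GB50423, where it had 1678 CPM against 4.38 CPM in Guard 205.

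Guard 210 stood apart from the other low DWV guards. The root mean square log2 difference over genes was 0.463 between Guard 210 and Guard 213, 0.469 to Guard 237 and 0.516 to Guard 230, against 0.556 to Guard 205 and 0.578 to Guard 222. Guard 205 and Guard 222 were 0.490 apart, and both were 0.606 to 0.690 from the high DWV guards. On the first principal component of the 6 guards, 41.1% of the variance, Guards 213, 230 and 237 were at 21.3, 20.9 and 18.1, Guard 210 was at 6.74, and Guards 205 and 222 were at -28.8 and -38.2. Guard 210 had a load of 32.0 RPM, between those of Guard 222 and Guard 205, so its place in expression did not follow its load.

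Without Guard 210, edgeR called 42 of 10952 genes (0.383%), 28 higher and 14 lower in high DWV guards, and the change exceeded 2-fold in 15 of the higher and 12 of the lower genes. A mean of at least 4 CPM over the 6 guards was reached by 34 of the 42, all 28 higher but only 6 of the lower genes. Leaving out Guard 205, Guard 213 or Guard 222 instead gave 0 calls each, leaving out Guard 230 gave 2 and leaving out Guard 237 gave 1. The exclusion of Guard 210 was chosen with these data known. The 42 calls and all adjusted p-values without Guard 210 carry that choice and are not a separate test of virus load. GB47546 had 739, 430 and 991 CPM in Guards 213, 230 and 237 and 638 CPM in Guard 210, against 1.13 CPM in Guard 205 and 2.14 CPM in Guard 222. The 12 nurses and unresponsive bees ran from 0.0492 to 4.66 CPM with a median of 0.251 CPM. All 3 high DWV guards and Guard 210 were thus high and all other colony 6 bees low. The log2 change was 8.76 ± 0.68 (SE) without Guard 210, with an adjusted p of 0.0489 by edgeR, and 1.76 ± 2.40 with it, with an adjusted p of 0.903.

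GB41806 had 39.1, 30.6 and 47.4 CPM in Guards 213, 230 and 237 and 65.0 CPM in Guard 210, against 5.00 CPM in Guard 205 and 5.18 CPM in Guard 222. Guard 210 was the highest of the 6, and nurses and unresponsive bees, from 1.99 to 8.45 CPM, lay around Guards 205 and 222. The log2 change without Guard 210 was 2.93 ± 0.22 (SE), with an adjusted p of 0.000802 by edgeR.

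Among the genes lower in high DWV guards, GB53579 had 8.95, 9.42 and 7.38 CPM in Guards 213, 230 and 237 and 13.4 CPM in Guard 210, against 58.6 CPM in Guard 205 and 69.0 CPM in Guard 222. The log2 change without Guard 210 was -2.90 ± 0.15 (SE), with an adjusted p of 0.00012 by edgeR. Nurse 237 had 7.04 CPM and the other 5 nurses 45.1 to 107 CPM, around Guards 205 and 222, while unresponsive bees ran from 6.76 to 44.4 CPM with a median of 23.1 CPM. GB50034 had 2.70, 2.16 and 4.77 CPM in the high DWV guards and 5.04 CPM in Guard 210, against 14.6 and 25.5 CPM in Guards 205 and 222, and nurses and unresponsive bees ran from 1.30 to 29.5 CPM with a median of 2.37 CPM. Its adjusted p without Guard 210 was 0.0416 by edgeR.

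**Figure D3:**
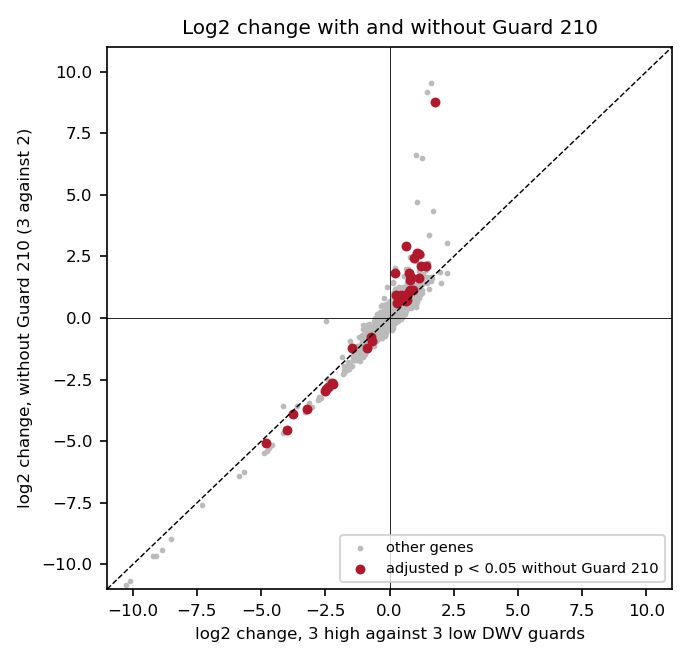
Log2 change of each gene between high and low DWV guards with all 6 guards (horizontal axis) and without Guard 210 (vertical axis); red points are the 42 genes with an adjusted p under 0.05 by edgeR without Guard 210, and the dashed line marks equal values. Most of the red points with positive change lie above the line, up to 8.76 without Guard 210 against 1.76 with it.

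The values of Guard 210 took no part in the fit that called the 42 genes. Its exclusion was chosen because earlier results of these data placed it with the high DWV guards. Its place in these genes is therefore described and is not separate evidence. In all 28 higher genes Guard 210 lay above both other low DWV guards, in 19 of them it reached at least the lowest high DWV guard, and in 10 it exceeded all 3. Among 1372 genes with the 3 high DWV guards above Guards 205 and 222, it lay above both other low DWV guards in 67.0% and reached the lowest high DWV guard in 49.4%. In the 14 lower genes it lay below both other low DWV guards in 13 and was at or below the highest high DWV guard in 4. Among 1167 genes with the opposite order these shares were 69.6% and 51.2%. On a scale where the mean of Guards 205 and 222 is 0 and the mean of the high DWV guards is 1, Guard 210 had a median position of 0.92 over the 42 genes, 1.05 in the higher and 0.71 in the lower genes. It was nearer to the high DWV mean in 36 of 42 genes (85.7%), against 53.9% of all 2539 genes whose 3 high DWV guards did not overlap with Guards 205 and 222, where its median position was 0.58. Over those 2539 genes the 12 nurses and unresponsive bees were nearer to the high DWV mean in 32.7% to 58.5%, with median positions of 0.20 to 0.70, so Guard 210 lay within their range there. Nurses had median positions of -0.02 to 0.11 over the 42 genes and unresponsive bees of -0.03 to 0.12. In the 28 higher genes the medians of these 12 bees lay between -0.07 and 0.05. In the 14 lower genes they were spread from 0.05 to 0.97.

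**Figure D4:**
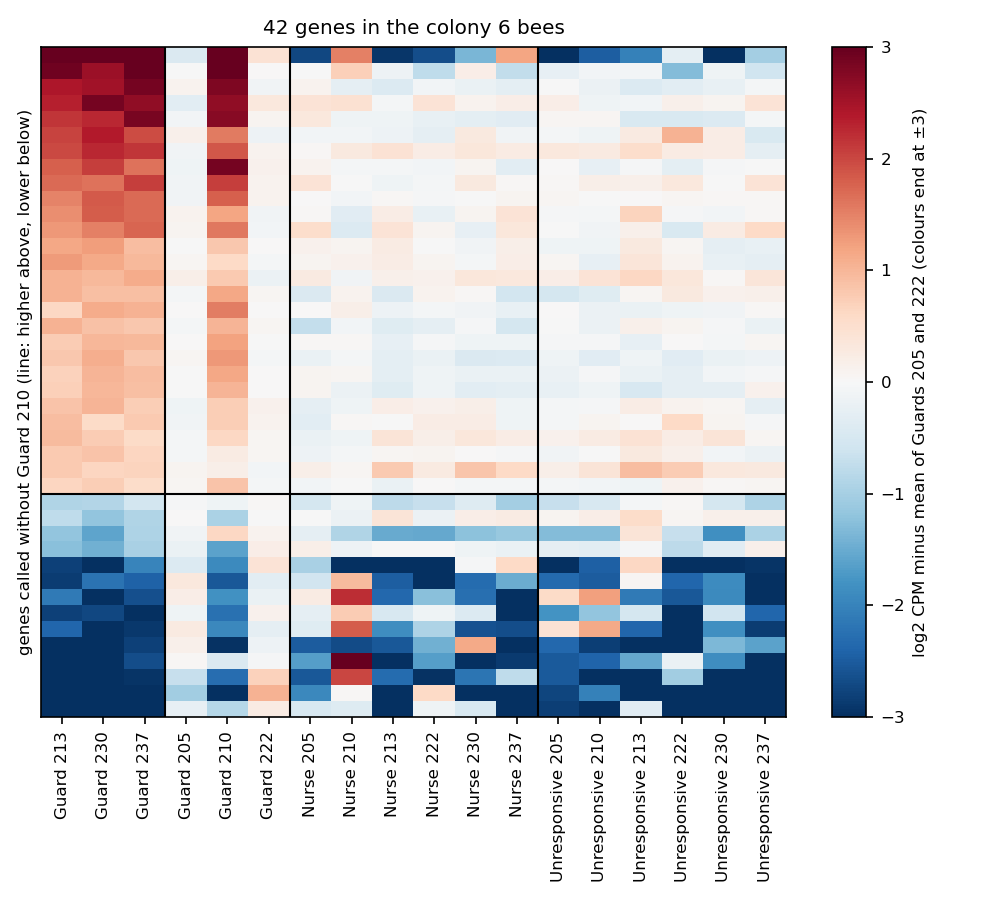
Log2 CPM minus the mean of Guards 205 and 222 for the 42 genes called without Guard 210, with genes in rows (28 higher genes above the line, 14 lower genes below) and the 18 colony 6 bees in columns, high DWV guards first; colours end at 3 log2 units to either side. In the upper block Guards 213, 230, 237 and 210 are red and most nurses and unresponsive bees are near white, except in the top row, GB47546, where 7 of them lie 2.02 to 3.45 log2 units below 0, while in the lower block many nurses and unresponsive bees are as blue as the high DWV guards.

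Of the 4 IDs known from earlier results, GB43784 and GB47805 split in the same way, and GB53925 did not. GB42469 did so among the guards only, since Unresponsive 222, at 19.3 CPM, lay above Guard 230, at 17.9 CPM. All 4 IDs were chosen because those results gave them as high in colony 6 guards, and GB43784 and GB47805 are among the 42 genes. Their split is therefore not separate evidence. GB43784 had 113, 120 and 154 CPM in Guards 213, 230 and 237 and 145 CPM in Guard 210, against 22.5 and 19.3 CPM in Guards 205 and 222, with 15.5 to 22.3 CPM in nurses and unresponsive bees. GB47805 had 181, 217 and 161 CPM in the high DWV guards and 377 CPM in Guard 210, against 46.8 and 56.9 CPM in Guards 205 and 222, with 41.6 to 55.3 CPM in nurses and unresponsive bees. These values leave a gap between 4 guards and the other 14 colony 6 bees in both genes. GB42469 had 43.9, 17.9 and 35.9 CPM in the high DWV guards and 44.1 CPM in Guard 210, against 6.55 and 13.5 CPM in Guards 205 and 222, with 2.55 to 19.3 CPM in nurses and unresponsive bees. Adjusted p for high against low DWV guards by edgeR was 0.852 for GB43784, 0.979 for GB47805 and 0.902 for GB42469 with all 6 guards. Without Guard 210 it was 0.000483, 0.00154 and 0.651 in that order of genes.

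Guard 237 was the guard whose absence changed the count most in a fit that took in the nurses and unresponsive bees, which was chosen after seeing the data. In this fit to the 18 colony 6 libraries as 4 groups, edgeR called 0 genes with all guards, 59 (41 higher and 18 lower; 0.519%) without Guard 210 and 285 (90 higher and 195 lower; 2.51%) without Guard 237. The 285 genes held small changes: 269 were under 2-fold, and the median log2 change was 0.33 for the higher and -0.46 for the lower genes. On a scale from the low DWV mean at 0 to the mean of Guards 213 and 230 at 1, Guard 237 had a median position of 0.07 in them and was nearer to Guards 213 and 230 in 10.5%, against 27.4% of all 3603 genes whose remaining groups did not overlap. The nurses and unresponsive bees had median positions of -0.06 to 0.21 in the 285 genes and were nearer to Guards 213 and 230 in 4.56% to 19.6%. Guard 237 thus lay within their range. The 285 genes were called in the fit that left out Guard 237, so its place in them is not separate evidence. Of these genes, 11 were also among the 59 called without Guard 210.

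The high DWV guards were next set against the 12 nurses and unresponsive bees of colony 6, and the low DWV guards against the same 12 bees. Both comparisons use the same 12 bees, and the high DWV one also differs in load. For high DWV guards edgeR called 164 of 11223 genes (1.46%), 101 higher and 63 lower. The count was 62 without Guard 213, 37 without Guard 230 and 1044 without Guard 237. For low DWV guards edgeR called 10 genes (0.0891%), all higher, and 4 without Guard 210, 18 without Guard 205 and 29 without Guard 222. The 2 lists shared 7 genes, 4.27% of the first and 70.0% of the second.

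GB50423 had 1840, 1628 and 1647 CPM in Guards 213, 230 and 237 and 1678 CPM in Guard 210, against 4.38 CPM in Guard 205 and 0.249 CPM in Guard 222, and 0 to 1.89 CPM in nurses and unresponsive bees. It was thus abundant in 4 guards and near 0 in the other 14 colony 6 bees. Against the nurses and unresponsive bees, its adjusted p by edgeR was 0.000751 for high DWV guards and 0.00924 for low DWV guards, and without Guard 210 the second was 0.614. GB51306 had 577, 352 and 1113 CPM in the high DWV guards and 738 CPM in Guard 210, against 0.516 and 1.79 CPM in Guards 205 and 222, with 0.0393 to 3.63 CPM in nurses and unresponsive bees. Some high DWV bees of colony 5 had raised GB50423: 442 CPM in Guard 5, 165 CPM in Unresponsive 19 and 76.1 CPM in Nurse 5. The median of all high DWV bees there was 0.963 CPM, and low DWV bees had 0.0482 to 2.22 CPM. GB51306 reached 41.3 CPM in Guard 5, with a median of 1.13 CPM in high DWV bees of colony 5 and 0.215 to 9.57 CPM in low DWV bees. Without Guard 210, the adjusted p between high and low DWV guards was 0.269 for GB50423 and 0.244 for GB51306, so neither was among the 42 genes in spite of the distance between their groups.

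The 2 genes lower in high DWV guards than in nurses and unresponsive bees changed less. GB51391 had 50.7, 37.8 and 46.0 CPM in Guards 213, 230 and 237 and 45.1 CPM in Guard 210, against 87.2 and 85.3 CPM in Guards 205 and 222, and 76.2 to 128 CPM in nurses and unresponsive bees. The log2 change between high DWV guards and those 12 bees was -1.11 ± 0.18 (SE), with an adjusted p of 0.00475 by edgeR. GB45859 had 3.14, 2.27 and 4.29 CPM in the high DWV guards, against 6.08, 4.61 and 6.62 CPM in Guards 205, 210 and 222, and 4.80 to 8.14 CPM in nurses and unresponsive bees, with an adjusted p of 0.0297.

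Of the 28 genes higher without Guard 210, 27 were called higher in high DWV guards against nurses and unresponsive bees, and of the 14 lower genes 1 was called lower. The high DWV guards are the same bees in both comparisons, so these counts are not separate evidence.

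GB53925 was high in most guards whatever their load. It had 21.6, 19.7 and 9.66 CPM in Guards 213, 230 and 237, against 19.8, 29.2 and 6.97 CPM in Guards 205, 210 and 222, and 2.98 to 5.84 CPM in nurses and unresponsive bees. All 6 guards lay above all 12 of those bees, and high and low DWV guards overlapped, with a log2 change of -0.13 (95% interval -1.64 to 1.38). Against the nurses and unresponsive bees the log2 change was 2.01 ± 0.26 for high DWV guards and 2.15 ± 0.26 for low DWV guards (SE), with adjusted p of 0.000751 and 0.00191 by edgeR. GB53925 was chosen as high in colony 6 guards from these same data, so these p-values are not a separate test of it. In colony 5 GB53925 had 2.93 to 9.88 CPM in high DWV bees and 3.42 to 9.95 CPM in low DWV bees. GB50526, the other gene named as higher in low DWV guards, was highest in Guard 205: the high DWV guards had 7.68, 6.30 and 7.54 CPM, against 44.4 CPM in Guard 205, 10.5 CPM in Guard 210 and 8.46 CPM in Guard 222, with 3.60 to 8.05 CPM in nurses and unresponsive bees.

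In colony 5, high and low DWV bees were compared with behavioural type as a term, and edgeR called 1 of 11026 genes (0.00907%). All 6 unresponsive bees there had high DWV. With type as a term, the change thus rested on 5 high against 1 low DWV guard and 2 high against 4 low DWV nurses. That gene, GB49544, had 0.759 to 12.2 CPM in the 13 high DWV bees, with a median of 1.75 CPM, against 75.8 to 152 CPM in the 5 low DWV bees, with a median of 113 CPM. The groups did not overlap, the log2 change was -5.28 ± 0.59 (SE) and the adjusted p was 0.00298. The only low DWV guard of colony 5, Guard 35, was needed for the call, since without it 0 genes passed. Without Guard 35, nurses were the only type with both high and low DWV bees.

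The colony 6 guards gave part of the same order for GB49544. It had 0.512, 5.84 and 0.760 CPM in Guards 213, 230 and 237, against 59.3 CPM in Guard 205, 0.636 CPM in Guard 210 and 123 CPM in Guard 222. Guard 210 again lay with the high DWV guards, and the log2 change was -4.79 ± 2.04 (SE), with an adjusted p of 0.792 by edgeR. Load did not order the other colony 6 bees: the 6 low DWV unresponsive bees had 0.965 to 4.28 CPM, and the 6 low DWV nurses had 1.13 to 896 CPM.

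The 42 genes called without Guard 210 were read in colony 5, whose bees took no part in choosing them. Of the 28 higher genes, 25 had a positive log2 change in high DWV bees of colony 5 and 3 a negative one, with a median of 0.19. Over all genes tested there, 49.7% were positive and the median was 0.00. Of the 14 lower genes 13 were tested, 11 with a negative change and 2 with a positive one, with a median of -0.75. Only 6 of the 14 lower genes had a mean of at least 4 CPM in the colony 6 guards. None of the 41 passed the threshold by edgeR. Before adjustment 1 higher and 1 lower gene had p under 0.05, against 2.24% of all genes tested there. The genes were measured in the same colony 5 bees and are not independent units, so the counts of signs were not tested. The changes were smaller than in colony 6: GB43784 had a log2 change of 0.33 (95% interval -0.44 to 1.09) in colony 5, where the highest bee, Guard 5, had 62.3 CPM. GB47805 had a log2 change of -0.05 (95% interval -0.42 to 0.33), with 104 to 212 CPM in high and 113 to 168 CPM in low DWV bees of colony 5.

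**Figure D5:**
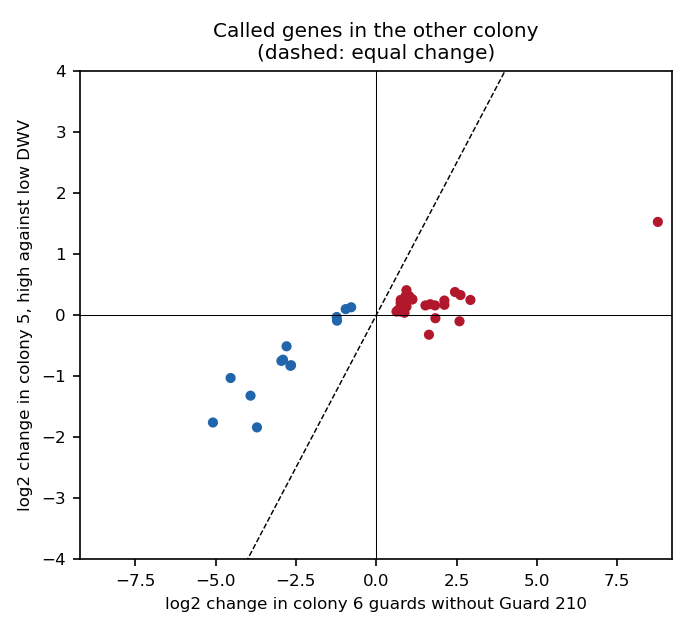
Log2 change between high and low DWV bees in colony 6 guards without Guard 210 (horizontal axis) and in colony 5 (vertical axis) for the called genes tested in both colonies, 28 higher in red and 13 lower in blue; the dashed line marks equal change. All but 3 red points have a positive value in colony 5, with a median of 0.19, and all points lie closer to 0 on the vertical than on the horizontal axis.

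The difference between the colonies was tested directly, as the change in colony 6 guards minus the change in colony 5. With all guards, 0 of 11812 genes (0%) passed by edgeR, while 818 were under 0.05 before adjustment and DESeq2 called 4. Without Guard 210, edgeR called 11 genes (0.0931%), 10 with a more positive and 1 with a more negative change in colony 6. Among these, 10 were of the 42 genes, which the same colony 6 guards had chosen. The exclusion of Guard 210 was itself chosen with these data known, so these calls are not a separate test. For GB47805 the difference was 1.88 ± 0.25 (SE) on the log2 scale without Guard 210, with an adjusted p of 0.000139, and 0.26 ± 0.54 with Guard 210, with an adjusted p of 0.958.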

How the data were processed

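Per the labels' protocols, 550 ng of RNA of each bee gave a stranded mRNA library, read over 101 cycles. Tools listed in the submitters' processing notes were TopHat2 2.0.10 with Bowtie2 2.1.0, HTSeq, SAMtools 0.1.19 and CASAVA 1.8.2, without settings. The authors deposited whole-number read counts per gene, not normalized, 1 file per bee, with 5 summary rows that stayed out of all tests (reads in no annotated gene held 28.1% to 29.3% of counts in the 6 guards). Virus load and mapping shares came from the labels. Counts were analysed in R 4.3.3 with the low-count filter, TMM scaling and robust quasi-likelihood test of edgeR 4.0.16 and with DESeq2 1.42.0; adjusted p-values are Benjamini-Hochberg over all genes tested, with a threshold of 0.05. SEs were taken from the log2 change and the F statistic, and 95% intervals built on them hold counting error as well as bee-to-bee spread. Figures used matplotlib 3.10.9. The test was run first on simulated counts. Genes named had a mean of at least 4 CPM and no overlap between groups, the 2 largest changes per direction; where none passed, the 2 smallest p. The members, the groups, the exclusion of Guard 210 and the 4 IDs given in any case were chosen with earlier results of these data known. The labels do not say what the title number marks. It was not used as a pair in the main tests, only as a replicate block in the alternative fits given at the end. Near-identical gene copies could not be recognised without gene names. Each library is a separate bee, and gene sequences were not used here.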

Additional observations from a re-analysis of the deposited data

Results flagged for a closer look

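Within groups of 4 to 10 bees, a bee far from the others was looked for in 47 sets of values; 11 were found, and chance gives about 1 in 20. Among named genes, Nurse 237 had 7.04 CPM for GB53579 against 45.1 to 107 CPM in the other nurses of colony 6. Unresponsive 213 had 29.5 CPM for GB50034, against 1.89 to 3.45 CPM in the other unresponsive bees, and 128 CPM for GB51391, against 90.8 to 100 CPM. Unresponsive 222 had 1.73 CPM for GB51306, against 0.147 to 0.413 CPM, and 19.3 CPM for GB42469, against 3.10 to 5.88 CPM. Unresponsive 210 had 7.14 CPM for GB45859, against 5.08 to 5.73 CPM.

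Among library values, Guard 213 had 27.5 M counts over genes, against 17.4 to 19.9 M in the other guards, and Nurse 213 had 25.8 M, against 18.2 to 20.6 M in the other nurses. Guard 222 had 3.78% of alignments that were not unique, against 2.86% to 3.07% in the other guards. Nurse 205 had a load of 41.6 RPM, against 2.60 to 7.03 RPM. Unresponsive 222 had 16.8% unassigned reads, against 14.2% to 14.8%.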

How the results depend on the processing

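All counts here are of genes past an adjusted p of 0.05, and the cause of each change was not tested. Leaving out 1 guard at a time, the count between high and low DWV guards of colony 6 ran from 0 to 42 by edgeR on the guards, 24 to 302 by DESeq2 (33 without Guard 205, 144 without Guard 210, 38 without Guard 213, 24 without Guard 222, 48 without Guard 230, 302 without Guard 237), 0 to 285 in the fit of 18 libraries as 4 groups (59 without Guard 210), and 0 to 53 with a replicate block on the title number (31 without Guard 210, 53 without Guard 237). These fits of 18 libraries and these DESeq2 exclusions were chosen after seeing the data. DESeq2 on all 6 guards gave 38, the fit of 36 libraries in 9 groups gave 1, and other scaling, no filter on low counts, the fit of 18 libraries and its replicate block each gave 0. Of the 42 genes that edgeR called without Guard 210, DESeq2 called all 42 when it too was run without Guard 210, and 11 when run on all 6 guards. For high DWV guards against nurses and unresponsive bees the count was 37 to 1044 over exclusions of a guard, 531 by DESeq2 and 284 with the replicate block; for low DWV guards it was 4 to 29, 51 by DESeq2 and 0 with the replicate block (677 at an unadjusted p under 0.05). In colony 5 it was 0 to 2 over exclusions, 3 by DESeq2 and 0 with the replicate block, and for the difference between colonies 0 to 11 over exclusions and 4 by DESeq2. No paired analysis was possible within the 6 guards because high and low DWV guards share no title number, so the block works through nurses and unresponsive bees; the labels do not say what the number marks. As a hint from the data, 9 of 18 colony 6 bees correlated best with a bee of their own number; the correlation exceeded 0.1 for 5 of 6 pairs of a nurse and an unresponsive bee and for 1 of 6 pairs of a guard with each of those types (-0.182 to 0.328 over all). With the block, edgeR's adjusted p was 0.272 for GB53925 and 0.442 for GB50423 and GB50526 in low DWV guards against nurses and unresponsive bees, and 1 for GB49544 in colony 5.

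GB53925 changed sign between high and low DWV guards, at 0.34 (0.33, 0.54 with the block, 0.34 by DESeq2) without Guard 210 and 0.14 (0.14, 0.17 with the block, 0.14 by DESeq2) without Guard 237. GB47805 changed sign too, at -0.22 (-0.22, -0.01 with the block, -0.22 by DESeq2) without Guard 205 and -0.19 (-0.19, and -0.19 by DESeq2) without Guard 222. Over exclusions of 1 guard, GB53925 ran from -0.53 to 0.34 and GB47805 from -0.22 to 1.84. GB47805 passed by edgeR without Guard 210, with a positive change. Neither gene passed the threshold under a setting that turned its sign. With 3 bees a side, leaving out 1 bee was enough to turn the sign of both genes. Any trait shared by all 3 bees of a side cannot be told from the virus group.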
